A study of Mus musculus with 5 samples.

Results

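The colony stimulating factors are secreted proteins that keep macrophages, granulocytes and dendritic cells alive and drive their production. The 8 genes described here are the 4 factors Csf1, Il34, Csf2 and Csf3 and the 4 receptor chains Csf1r, Csf2ra, Csf2rb and Csf3r, taken by gene symbol from the 28666 genes of the count table. CSF1 and interleukin 34 both signal through the receptor tyrosine kinase CSF1R. CSF2 (GM-CSF) signals through an alpha chain, CSF2RA, paired with the beta common chain CSF2RB, and CSF3 (G-CSF) signals through a pair of CSF3R chains. In the uterus, seminal fluid is known to induce such factors in the epithelium after mating, and CSF1 is known as the hormone-driven macrophage growth factor of this tissue.

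Messenger RNA of whole uteri was sequenced in 5 libraries from ICR females aged 6 to 8 weeks, all pseudopregnant and all exposed to seminal plasma without sperm. In the aged-SP group (n = 2, replicates 1 and 4) the females had been caged with vasectomised C57BL/6 males of 12 to 18 months. In the young-SP group (n = 3, replicates 1, 2 and 4) the vasectomised males were 12 to 14 weeks old. The methods place collection at 3.0 days post coitum, counting the plug day as 0.5, while the labels give 3.5 days after caging, and a sixth library of the young-SP group was left out by the authors and was not analysed here. Uteri of unmated females and of females mated to intact males were not analysed here, so no level below is set against an unexposed uterus. The labels do not say whether each library came from 1 animal, and the p-values therefore measure only the spread between these samples.

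Total counts lay between 15071914 and 16728601 per library. The tissue matched its label: Hoxa10, a patterning gene of the uterus, lay between 437 and 518 CPM (counts scaled by library size), and markers of vagina and cervix summed to at most 1.67 CPM. Oviduct markers summed to between 35.8 and 234 CPM and ovary markers to between 21.2 and 70.8 CPM. The oviduct sum was highest in young-SP replicate 4, where Ovgp1 gave 232 CPM, and the ovary sum in aged-SP replicate 4. Adipose tissue markers summed to 5.13 CPM in young-SP replicate 4 and to at most 0.125 CPM in any other library. The gland proteases Prss28 and Prss29, which mark secretion around implantation, differed widely between the libraries. Prss29 was at 2460 and 2130 CPM in aged-SP replicates 1 and 4, at 385 CPM in young-SP replicate 1, and at 2.95 and 11.5 CPM in young-SP replicates 2 and 4. Young-SP replicate 1 therefore lay between the aged-SP pair and the other two young-SP libraries for these genes, and each member is given below with and without single libraries where that changes it.

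Of the 8 genes, 7 passed the filter on low counts and were tested among 17013 genes with the quasi-likelihood test of edgeR, and a gene was called where its p, adjusted by Benjamini-Hochberg, was under 0.05 and its log2 fold change was over 1 in size. None of the 7 was called, against 25 genes or 0.147% of all tested genes in either direction and 0.0823% higher in the aged-SP group. DESeq2 called none of the 7 either, while it called 632 of 17536 genes, or 3.60%. Only Csf1 had an unadjusted edgeR p under 0.05. This is 1 of 7, beside 19.0% of all tested genes (9.62% with a higher and 9.36% with a lower level in the aged-SP group). Csf1 was also the single member whose groups did not overlap, beside 38.8% of all tested genes (19.5% higher and 19.3% lower). The fitted fold changes of the members were above 0 for 5 genes and below 0 for 2, with a median log2 fold change of 0.22 against 0.01 over all tested genes.

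Compared per length, in FPKM (fragments scaled by gene length and library total), the receptor Csf1r was the most abundant member in 4 of 5 libraries, and Csf1 was the most abundant in the fifth, aged-SP replicate 1. The mean over the 5 libraries was 24.3 FPKM for Csf1r, which exceeds the mean of 87.0% of tested genes. The mean of Csf1 was 18.3 FPKM, raised by its 59.0 FPKM in aged-SP replicate 1, and that of Csf2ra was 14.2 FPKM. Outside aged-SP replicate 1, Csf2ra exceeded Csf1 in every library. Csf3r averaged 7.71, Csf2rb 5.69 and Csf3 4.29 FPKM, and the ranges of these 3 genes over the libraries overlapped. Il34 averaged 0.977 FPKM, above 18% of tested genes. Csf2 was last in every library.

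**Figure D1:**
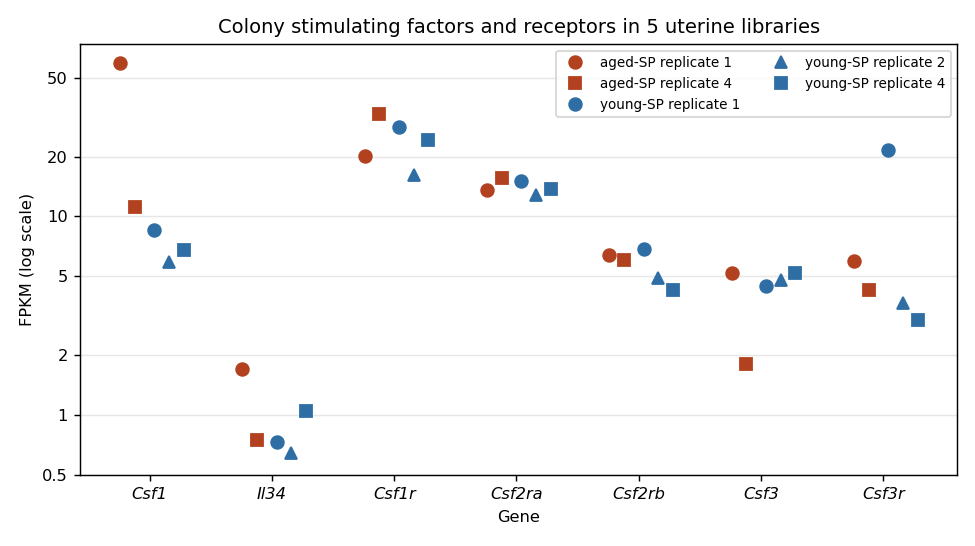
Level of each tested member in FPKM (vertical axis, log scale) in the 5 uterine libraries, 1 point per library, red for the aged-SP group and blue for the young-SP group, with the marker shape giving the replicate number. Csf1 in aged-SP replicate 1 (59.0 FPKM) and Csf3r in young-SP replicate 1 (21.6 FPKM) stand apart from the other libraries, Csf2ra stays between 12.9 and 15.7 FPKM, and Csf2, with at most 2 reads, is not drawn.

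Csf1 (ENSMUSG00000014599, GRCm38 chr3:107741048-107760469, minus strand) encodes the main macrophage growth factor. Its counts were 5209 and 927 in aged-SP replicates 1 and 4, and 723, 518 and 540 in young-SP replicates 1, 2 and 4. Scaled to library size these were 314 and 59.2 CPM against 45.2, 30.6 and 36.0 CPM. Both aged-SP libraries lay above all 3 young-SP libraries, but the gap between the pair of aged-SP libraries was itself wider than the gap between the groups. The group means were 187 ± 181 CPM (SD, n = 2) and 37.2 ± 7.37 CPM (SD, n = 3).

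The fitted difference of Csf1 was a log2 fold change of 2.33 (SE 0.65, 95% interval 0.70 to 3.95), a 5.02-fold higher level in the aged-SP group. It did not pass the call, with an adjusted p of 0.160 in edgeR and 0.0649 in DESeq2. Aged-SP replicate 1 set most of its size. Without that library the log2 fold change was 0.67 (edgeR unadjusted p = 0.0412, adjusted p = 0.393), in a fit in which 0.00568% of genes were called and 12% had an unadjusted p under 0.05. Without aged-SP replicate 4 it was 3.08 and passed the call in edgeR (adjusted p = 0.0433), in a fit that called 0.278% of genes and in which the lone aged-SP library was assumed to vary like the young-SP ones. Leaving out a young-SP library gave values between 2.2 and 2.48.

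The level of Csf1 in aged-SP replicate 1 was 5.31-fold above its second highest library. Among the 17013 tested genes, 58 or 0.341% stood at least as far above their second highest library in that same replicate. Over the 5 libraries the spread of Csf1, 3.36 on the log2 scale from lowest to highest, was wider than that of 97.3% of tested genes. None of the 50-base stretches of its transcripts is shared with another annotated gene.

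The 3 genes whose pattern over the 5 libraries was most like that of Csf1, among 13992 genes compared by the root mean square difference of centred log2 CPM, were Atp6v0a4, Ccl7 and Rnase1. Atp6v0a4, a subunit of the proton pump that acidifies organelles and the cell surface, differed from Csf1 by 0.190 on that scale. Its values were 59.0 and 12.3 CPM in the aged-SP libraries against 6.68, 6.38 and 7.53 CPM. Ccl7, a chemokine that attracts monocytes, differed by 0.257, with 12.9 and 2.49 CPM against 3.00, 1.36 and 1.73 CPM. Rnase1, a secreted ribonuclease, differed by 0.271, with 18.8 and 2.87 CPM against 1.69, 1.30 and 1.13 CPM. All 3 shared the peak in aged-SP replicate 1, which weighs heavily in a likeness over only 5 libraries, and no test was made of it.

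Il34 (ENSMUSG00000031750, chr8:110741829-110805924, minus strand), the second ligand of CSF1R, is best known from skin and brain, where it maintains Langerhans cells and microglia. It was counted 56 and 23 times in the aged-SP libraries and 23, 21 and 31 times in the young-SP libraries, or 3.38 and 1.47 CPM against 1.44, 1.24 and 2.07 CPM. Aged-SP replicate 1 was again the highest, and aged-SP replicate 4 lay within the young-SP range. The log2 fold change was 0.62 (95% interval -0.51 to 1.75, edgeR adjusted p = 0.5), and without aged-SP replicate 1 it was -0.10. Exons of Il34 overlap those of 2 predicted genes on the opposite strand, Gm15894 and Gm15895, and the library kit does not mark strand.

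Per length, Csf1 exceeded Il34 in every library. The ratio of their FPKM values was 34.5 and 15 in the aged-SP libraries and 11.7, 9.15 and 6.46 in the young-SP libraries. The groups did not overlap, but neither did those of Csf1 itself, as for 38.8% of all tested genes. Outside aged-SP replicate 1 the ratio rests on between 21 and 31 reads of Il34, and no test was made of it.

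Csf1r lies on chromosome 18 (ENSMUSG00000024621, 61105572 to 61132149, plus strand) and is carried by macrophages and their precursors. It gave 99.6 and 160 CPM in the aged-SP libraries and 138, 77.2 and 119 CPM in the young-SP libraries. The groups overlapped, and aged-SP replicate 1, the library with the most Csf1, held the second lowest Csf1r. Group means were 130 ± 42.7 CPM (SD, n = 2) and 112 ± 31.3 CPM (SD, n = 3). The fitted log2 fold change was 0.22 (SE 0.31, 95% interval -0.55 to 0.99, edgeR adjusted p = 0.737). The interval reaches nearly to the fold threshold of the call in the direction of the aged-SP group. Without aged-SP replicate 4 the value turned to -0.16. Of its 50-base stretches, 14.3% also lie in Hmgxb3, whose exons overlap on the opposite strand, so that reads there cannot be told apart by a kit without strand.

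The ligand to receptor ratio, Csf1 over Csf1r in FPKM, was 2.92 in aged-SP replicate 1 and 0.342 in aged-SP replicate 4. In the young-SP libraries it was 0.302, 0.366 and 0.280. Aged-SP replicate 4 thus lay inside the young-SP range for this ratio, and the single library with more Csf1 than Csf1r was aged-SP replicate 1.

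**Figure D2:**
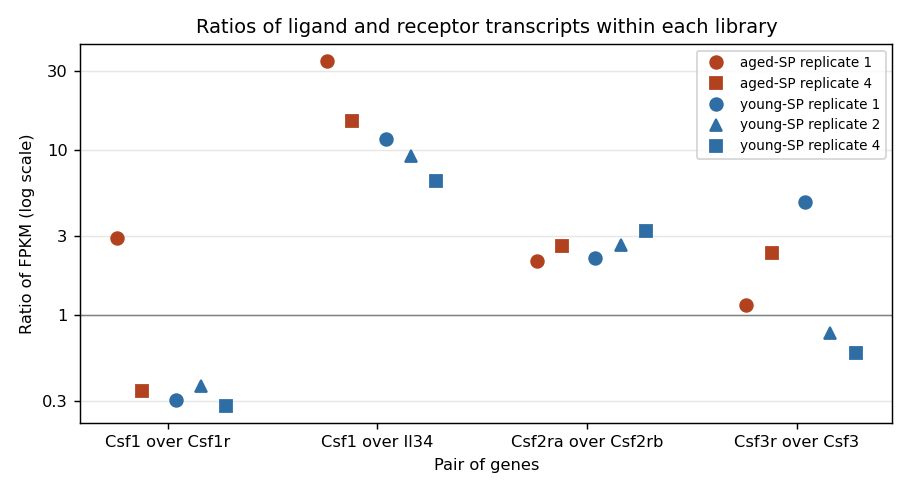
Ratios of FPKM values between pairs of members within each library (vertical axis, log scale, line at 1), 1 point per library, red for the aged-SP group and blue for the young-SP group. Csf1 over Csf1r exceeds 1 only in aged-SP replicate 1 (2.92), and Csf3r over Csf3 runs from 0.580 to 4.83 within the young-SP group. Csf1 over Il34 is 15 or more in the aged-SP group and 11.7 or less in the young-SP group. Outside aged-SP replicate 1 it rests on at most 31 reads of Il34.

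In whole tissue, fewer cells of a type and less RNA per cell cannot be told apart, so Csf1r was set beside 15 macrophage markers. None of the 15 was called by edgeR or DESeq2. In edgeR, 1 had an unadjusted p under 0.05, beside 19.0% of all tested genes. Of the 15, 10 had a fold change above 0, and their median log2 fold change was 0.24. Their summed level was 713 and 1070 CPM in the aged-SP libraries and 1090, 558 and 754 CPM in the young-SP libraries, which overlapped. Csf1r followed this sum from library to library: its log2 CPM exceeded the mean log2 CPM of the markers by 1.81 and 1.87 in the aged-SP libraries and by 1.75, 1.73 and 1.99 in the young-SP libraries. The difference between the groups on this relative scale was 0.02, and lay between -0.03 and 0.10 when single libraries were left out.

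Lyve1, a hyaluronan receptor of lymphatic vessels and of a subset of resident macrophages, had the smallest p of the macrophage list. It was at 87.7 and 91.9 CPM in the aged-SP libraries and at 43.4, 52.8 and 53.1 CPM in the young-SP libraries, without overlap. Its log2 fold change was 0.85 (SE 0.12), with an adjusted p of 0.0734 in edgeR and 1.39e-05 in DESeq2, below the fold threshold of the call in both. Unlike Csf1r, it did not rise and fall with the rest of the list. Adgre1, which encodes F4/80, was at 62.8 and 85.5 CPM against 106, 47.3 and 75.3 CPM, and C1qb, the complement gene among the most abundant of the list, at 116 and 181 CPM against 181, 80.9 and 109 CPM. Folr2, a folate receptor of resident macrophages, had the lowest mean CPM of the list, at 2.29 and 5.49 CPM against 2.5, 2.3 and 3.8 CPM. Per length, in FPKM, Cd163 was lower than Folr2 in every library.

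**Figure D3:**
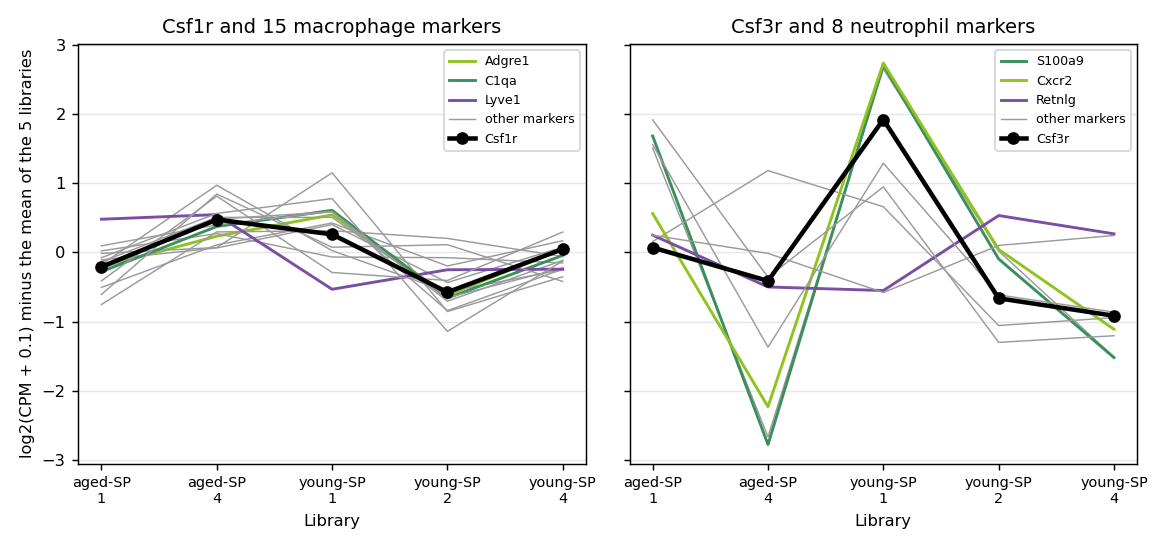
Log2 CPM (with 0.1 added) minus the mean of the 5 libraries (vertical axis) for Csf1r with 15 macrophage markers (left) and Csf3r with 8 neutrophil markers (right), 1 line per gene across the 5 libraries. Csf1r runs among the macrophage markers, of which Lyve1 and Mertk do not overlap between the groups. Csf3r shares the peak of S100a9 and Cxcr2 in young-SP replicate 1 but not the depth of their fall in aged-SP replicate 4. The coloured markers were picked after their values were seen.

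The genes nearest to Csf1r in pattern, by the same measure, were C2, P2ry6 and Tmem106a, at distances of 0.0403, 0.0629 and 0.0711 on the log2 scale. C2, a complement component, was at 2.90 and 4.92 CPM in the aged-SP libraries and at 4.31, 2.42 and 3.73 CPM in the young-SP libraries. P2ry6, a receptor for extracellular nucleotides, was at 11.7 and 17.1 CPM against 14.6, 8.03 and 13.1 CPM. For each of the 3 the lowest library was young-SP replicate 2 and the highest aged-SP replicate 4, as for Csf1r.

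A list of 7 further genes of the CSF1R axis held other receptors of interleukin 34 and signalling adaptors. None was called. In this list 1 gene had an unadjusted edgeR p under 0.05 and groups without overlap, beside 19.0% and 38.8% of all tested genes. It was Gab2, a docking adaptor that links such receptors to PI3 kinase, at 46.8 and 47.5 CPM against 29.7, 26.3 and 31.6 CPM. Its log2 fold change was 0.69 (SE 0.11), with an adjusted p of 0.0766 in edgeR and 8.34e-04 in DESeq2, again below the fold threshold. Sdc1, a proteoglycan reported as a receptor of interleukin 34, had a log2 fold change of 0.17, and Tyrobp, the DAP12 adaptor, one of 0.19 with 46.9 and 71.4 CPM against 72.0, 38.8 and 45.3 CPM. The median of the list was 0.04.

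Csf2 (ENSMUSG00000018916, chr11:54247271-54249667, minus strand) encodes GM-CSF, the factor from which dendritic cells are grown in culture. It had 2 reads in aged-SP replicate 1 and 1 read in young-SP replicate 2, and was not detected in the other 3 libraries. A count of 0 allows up to 3 counts, here between 0.177 and 0.200 CPM or between 0.224 and 0.249 FPKM depending on the library, and this limit covers counting error only. All 5 values lay below it, so Csf2 did not enter the edgeR test, no fold is given, and a difference between the groups was not detectable at this depth.

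Csf2ra (ENSMUSG00000059326, chr19:61224402-61228418, minus strand) encodes the chain that gives the GM-CSF receptor its specificity. It was the steadiest member, at 25.4 and 29.1 CPM in the aged-SP libraries and 28.1, 23.4 and 25.4 CPM in the young-SP libraries. Its spread over the 5 libraries was 0.32 on the log2 scale, and only 20.6% of tested genes had a smaller one. The log2 fold change was 0.09 (SE 0.14, 95% interval -0.25 to 0.43, edgeR adjusted p = 0.763), an interval that leaves out changes of the size of the call threshold in both directions. Without aged-SP replicate 4 the value was -0.02.

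Csf2rb (ENSMUSG00000071713, chr15:78325990-78351000, plus strand), the signalling chain shared by the receptors of GM-CSF, interleukin 3 and interleukin 5, lies next to its duplicate in mice, Csf2rb2, whose product serves interleukin 3 alone. The coding sequences, of 2688 bases in Csf2rb and 2634 in Csf2rb2, were aligned with gaps allowed. Outside the gaps 2628 bases were paired, and 2503 of these pairs, or 95.2%, were identical. Of the 50-base stretches of Csf2rb, 12.3% also occur in Csf2rb2, and 18.4% of those of Csf2rb2 occur in Csf2rb. How reads that match both genes were counted is not given in the sources used here. To show how little separates the pair, the first 90 coding bases of the largest coding exon of each are printed from GRCm38 in coding direction, with the 4 bases that differ in capitals (Csf2rb chr15:78348072-78348161, plus strand, and Csf2rb2 chr15:78285290-78285379, minus strand).
Csf2rb: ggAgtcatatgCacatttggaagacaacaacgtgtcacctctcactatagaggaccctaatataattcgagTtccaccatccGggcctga
Csf2rb2: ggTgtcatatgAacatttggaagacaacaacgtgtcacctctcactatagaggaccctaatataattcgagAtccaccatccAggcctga

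Csf2rb was at 30.9 and 28.7 CPM in the aged-SP libraries and at 32.7, 22.8 and 20.5 CPM in the young-SP libraries. Young-SP replicate 1 was the highest of all 5, so the groups overlapped. The log2 fold change was 0.23 (SE 0.22, 95% interval -0.32 to 0.79, edgeR adjusted p = 0.605). Without young-SP replicate 1 it was 0.45 (edgeR unadjusted p = 0.0198, adjusted p = 0.137), in a fit in which 3.45% of genes were called and 22.7% had an unadjusted p under 0.05. With the counts of Csf2rb and Csf2rb2 summed, the log2 fold change of the pair was 0.27 (edgeR unadjusted p = 0.146, adjusted p = 0.415).

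In FPKM the alpha chain exceeded the beta chain in every library. Csf2ra over Csf2rb was 2.11 and 2.62 in the aged-SP libraries and 2.21, 2.64 and 3.20 in the young-SP libraries. Csf2rb over Csf2rb2 was 1.81 and 1.51 against 2.2, 1.62 and 1.49. Neither ratio separated the groups.

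The other receptor genes that work with a beta chain did not overlap between the groups and lay higher in the aged-SP group, each with an unadjusted edgeR p under 0.05 and none with a call. Csf2rb2 was at 16.5 and 18.4 CPM against 14.4, 13.6 and 13.3 CPM (log2 fold change 0.34, edgeR adjusted p = 0.256). Il3ra, the interleukin 3 receptor alpha chain, was at 15 and 19.3 CPM against 11.1, 12.4 and 8.20 CPM (0.70, edgeR adjusted p = 0.205). Il5ra, the interleukin 5 receptor alpha chain of eosinophils and B1 cells, was at 7.06 and 1.6 CPM against 0.750, 1.48 and 1.07 CPM (1.97, edgeR adjusted p = 0.212). The peak of Il5ra was in aged-SP replicate 1, as for Csf1, and without that library its log2 fold change was 0.53 (edgeR adjusted p = 0.726). Il5ra had 25 reads in aged-SP replicate 4 and 25 in young-SP replicate 2, so library scaling alone kept its groups from overlapping. The count of 3 of 3 tested genes stands beside 9.62% of all tested genes with an unadjusted p under 0.05 in that direction. Groups without overlap in that direction were found for 19.5% of all tested genes. Il5 had at most 4 reads in a library and was not tested, and Il3 had no row in the table.

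Csf3 (ENSMUSG00000038067, chr11:98701263-98703629, plus strand) encodes G-CSF, which drives the production of neutrophils. It was at 7.43 and 2.55 CPM in the aged-SP libraries and at 6.37, 6.61 and 7.33 CPM in the young-SP libraries. The 3 young-SP libraries lay close together, and the aged-SP libraries lay on either side of them, with the highest and the lowest value of all. Group means were 4.99 ± 3.44 CPM (SD, n = 2) and 6.77 ± 0.501 CPM (SD, n = 3). The fitted log2 fold change was -0.44 (95% interval -1.56 to 0.69, edgeR adjusted p = 0.634). Without aged-SP replicate 1 it was -1.41, and without aged-SP replicate 4 it was 0.13, each from a fit with a single aged-SP library. The direction of Csf3 thus depended on which aged-SP library was kept.

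Csf3r (ENSMUSG00000028859, chr4:126024550-126044440, plus strand), the G-CSF receptor, is carried mainly by neutrophils and their precursors. It was at 21.7 and 15.5 CPM in the aged-SP libraries and at 78.6, 13.0 and 10.9 CPM in young-SP replicates 1, 2 and 4, where 78.6 CPM stood for 1258 reads. A single library, young-SP replicate 1, was 3.62-fold above the second highest, and both aged-SP libraries lay above the remaining young-SP pair. Of all tested genes, 16 or 0.0940% stood at least as far above their second highest library in that replicate. Group means were 18.6 ± 4.44 CPM (SD, n = 2) and 34.1 ± 38.5 CPM (SD, n = 3).

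The log2 fold change of Csf3r was -0.88 (SE 0.93, 95% interval -3.21 to 1.46, edgeR adjusted p = 0.648). Without young-SP replicate 1 it turned to 0.63 (edgeR unadjusted p = 0.0386, adjusted p = 0.194). In FPKM, Csf3r over Csf3 was 1.15 and 2.37 in the aged-SP libraries and 4.83, 0.769 and 0.580 in the young-SP libraries. Of its 50-base stretches, 8.84% are shared with AC105061.2.

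The summed level of neutrophil markers was also highest in young-SP replicate 1, a sum that S100a9 dominates. Of the list of 10, 8 were tested, none was called or had an edgeR unadjusted p under 0.05, and their median log2 fold change was -0.03. The summed level of the list was 91.2 and 16.9 CPM in the aged-SP libraries and 175, 45.5 and 27.7 CPM in the young-SP libraries. S100a9, a calcium-binding protein abundant in neutrophils, was at 50 and 2.17 CPM against 102, 14.5 and 5.33 CPM. Cxcr2, their main chemokine receptor, was at 7.24 and 0.958 CPM against 33.1, 5.02 and 2.2 CPM.

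Csf3r and the summed markers had the same highest and second highest library, young-SP replicate 1 and aged-SP replicate 1, but aged-SP replicate 4 was lowest for the markers and above young-SP replicates 2 and 4 for Csf3r. The log2 CPM of Csf3r exceeded the mean log2 CPM of the 8 markers by 2.13 and 3.68 in the aged-SP libraries and by 3.73, 2.64 and 2.91 in the young-SP libraries. The markers did not move as one. Of the 8 tested, only S100a8, S100a9 and Cxcr2 were highest in young-SP replicate 1. Mpo, Ngp and Mmp8 were highest in aged-SP replicate 1 and Ly6g in aged-SP replicate 4, all 4 of them at most at 3.08 CPM. Retnlg, named after its values were seen, was lowest in young-SP replicate 1 at 8.62 CPM and highest in young-SP replicate 2 at 18.4 CPM. Elane and Camp, granule genes of neutrophil precursors, had at most 0.187 CPM in a library. The part of neutrophil number in the level of Csf3r was not tested.

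**Figure D4:**
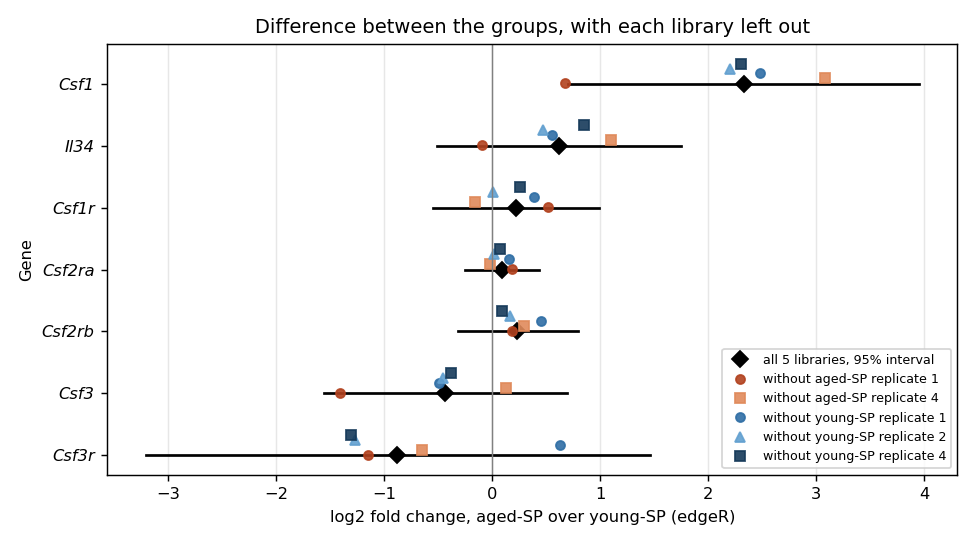
Log2 fold change (aged-SP relative to young-SP) for the 7 tested members (horizontal axis, edgeR), with black diamonds and 95% intervals for all 5 libraries and coloured points for the fit without each library. Only the interval of Csf1 lies above 0, the point of Csf1 without aged-SP replicate 1 falls to 0.67, and the points of Csf3r without young-SP replicate 1 and of Csf3 without aged-SP replicate 4 lie on the other side of 0.

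Downstream of the GM-CSF and G-CSF receptors, none of 10 genes of JAK-STAT signalling was called by edgeR or DESeq2. In edgeR, 2 of the 10 were higher in the aged-SP group with an unadjusted p under 0.05 and none was lower, beside 9.62% and 9.36% of all tested genes. Without overlap, 3 were higher and 2, Jak1 and Jak2, were lower, beside 19.5% and 19.3%, and the median log2 fold change was 0.32. Stat3, the main transducer of the G-CSF receptor, was at 307 and 228 CPM against 201, 177 and 202 CPM (log2 fold change 0.47, edgeR adjusted p = 0.200). Cish, a feedback inhibitor and a target of STAT5, was at 16.4 and 10.1 CPM against 9.06, 5.55 and 6.13 CPM (0.94, edgeR adjusted p = 0.210). Jak2, the kinase bound to the beta common chain, was at 261 and 242 CPM against 331, 302 and 275 CPM (-0.27, edgeR adjusted p = 0.282), and its relative Jak1 was at 304 and 255 CPM against 325, 324 and 318 CPM (-0.21, edgeR adjusted p = 0.362). Stat3 and Cish were highest in aged-SP replicate 1, as was Csf1.

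Among 9 transcription factors of the myeloid lineages, 5 were higher in the aged-SP group with an unadjusted edgeR p under 0.05 and without overlap, and none was lower (over all tested genes, 9.62% were higher by that p and 19.5% higher without overlap). The median log2 fold change was 0.62. None passed the call in edgeR, and 1, Cebpb, passed it in DESeq2 (adjusted p = 0.0275). Cebpa, a factor of the granulocyte and monocyte lineage, was at 41.4 and 40.4 CPM against 30, 29.6 and 28.3 CPM (log2 fold change 0.48, edgeR adjusted p = 0.0964). Runx1, a factor of blood stem cells, was at 18.7 and 16.4 CPM against 11.5, 7.32 and 8.80 CPM (0.93, edgeR adjusted p = 0.132). Cebpb, which is active in macrophages and in the endometrial stroma, was at 18.9 and 11.9 CPM against 9, 5.79 and 7.20 CPM (1.07, edgeR adjusted p = 0.149). Several of these factors are also made by epithelial and stromal cells, and the cells behind these values were not measured.

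Of 8 other haematopoietic growth factors and receptors, 6 were tested and none was called by either tool. Kit, the stem cell factor receptor of mast cells and progenitors, was the 1 gene with an unadjusted edgeR p under 0.05, beside 19.0% of all tested genes. It was lower in the aged-SP group, at 15.8 and 15.1 CPM against 20.4, 29.3 and 29.0 CPM (log2 fold change -0.76, edgeR adjusted p = 0.145). Flt3l, the growth factor of dendritic cells, was at 4.77 and 3.90 CPM against 3.12, 2.95 and 3.27 CPM (0.48, edgeR adjusted p = 0.318).

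The markers of the cells that could carry these receptors gave the following levels. The 4 leukocyte genes summed to 263 and 293 CPM in the aged-SP libraries and to 359, 252 and 261 CPM in the young-SP libraries, and none had an unadjusted edgeR p under 0.05. The 4 monocyte markers summed to 505 and 540 CPM against 857, 413 and 421 CPM. Plac8 made up most of each of these sums, at 419 and 463 CPM against 744, 319 and 331 CPM. Ccr2, the receptor that brings monocytes into tissue, was at 80.7 and 70.5 CPM against 105, 92.6 and 85.9 CPM (log2 fold change -0.32, edgeR adjusted p = 0.255). The summed leukocyte, monocyte and neutrophil markers were highest in young-SP replicate 1, whereas for the macrophage list young-SP replicate 1 and aged-SP replicate 4 were nearly equal by sum and aged-SP replicate 4 was the higher by mean log2 CPM (5.46 against 5.36).

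Of 8 dendritic cell markers, none was called and 1 had an unadjusted edgeR p under 0.05, beside 19.0% of all tested genes. Their median log2 fold change was 0.00, with sums of 57.0 and 60.4 CPM against 47.4, 62 and 48.7 CPM. That 1 gene was Batf3, a factor of conventional dendritic cells, at 4.35 and 4.28 CPM against 2.25, 2.66 and 3.00 CPM (log2 fold change 0.71, edgeR adjusted p = 0.207). By mean CPM, which does not correct for gene length, Zbtb46 was the highest of the list and Ccr7 the lowest. Zbtb46 was at 18.7 and 19.4 CPM against 16, 23.1 and 18.3 CPM. Ccr7, a homing receptor of mature dendritic cells, was at 3.8 and 1.72 CPM against 2.12, 0.354 and 0.733 CPM. Of the eosinophil list, Epx had at most 0.0667 CPM and Prg2 at most 0.767 CPM, while other genes of the list were detected in every library. Ccr3 was at 9.90 and 10.5 CPM against 6.43, 10.2 and 11.8 CPM, and Siglecf at 3.08 and 3.83 CPM against 2.37, 5.96 and 3.87 CPM. The number of eosinophils was not measured. In the eosinophil list 1 gene had an unadjusted edgeR p under 0.05, beside 19.0% of all tested genes. It was Alox15, a lipoxygenase that epithelium also makes, at 26.4 and 108 CPM against 225, 141 and 230 CPM (-1.57, edgeR adjusted p = 0.255).

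Among the cells that make the ligands, epithelial markers summed to 1450 and 1420 CPM in the aged-SP libraries and to 1860, 952 and 1160 CPM in the young-SP libraries. Their median log2 fold change was 0.38 over 9 genes. Cldn3, a tight junction protein, was the epithelial marker called by DESeq2 (adjusted p = 8.01e-12) but not by edgeR (adjusted p = 0.0552), at 91.4 and 96.0 CPM against 178, 187 and 207 CPM. The 5 gland genes summed to 3920 and 2910 CPM against 496, 39.8 and 33.9 CPM. Of these, Cxcl15 was called by DESeq2 (adjusted p = 2.54e-04) but not by edgeR (adjusted p = 0.116), with a lower level in the aged-SP group. DESeq2 gave no p for Prss28 and Prss29, so it could not call them. Prss28 and Prss29 made up most of the gland sum in aged-SP replicate 1 (1440 and 2460 CPM) and in aged-SP replicate 4 (763 and 2130 CPM). Foxa2 was at 10.6 and 11.9 CPM against 8.50, 14.1 and 11.6 CPM. Lif was at 6.40 and 2.62 CPM against 3.62, 2.24 and 2.40 CPM. The gland sum was highest in aged-SP replicate 1 and second in aged-SP replicate 4, as was Csf1, while Csf1 dropped 5.31-fold from the first to the second. The part of gland state in the level of Csf1 was not tested. Stromal markers summed to between 4030 and 5990 CPM, those of the myometrium to between 8490 and 13500 CPM and those of the endothelium to between 469 and 750 CPM, and none of these 20 genes was called by edgeR or DESeq2. Of the 8 stromal genes, 3 were lower and 1 was higher in the aged-SP group with an unadjusted edgeR p under 0.05. The shares over all tested genes were 9.36% lower and 9.62% higher. The smallest p was that of Pdgfra, a growth factor receptor of stromal cells, at 346 and 344 CPM against 453, 616 and 559 CPM. Its log2 fold change was -0.65, with an adjusted p of 0.120 in edgeR and 0.00476 in DESeq2, within the fold threshold of the call. Emcn, an endothelial sialomucin, was at 46.5 and 45.9 CPM against 50.4, 64.7 and 58.2 CPM (-0.32, edgeR adjusted p = 0.258).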

How the data were processed

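RNA of uteri was sequenced in 5 libraries by the authors on an Illumina system after library preparation with a NEBNext Ultra kit, and reads were aligned with HISAT2 2.1.0. Bowtie2 2.2.3 and HTSeq 0.6.0 are named in the submitters' processing notes without a role, and the genome build is not given in the sources used here. Positions of genes were read from the deposited table, and for 5 of the 8 members they equal those of GENCODE M21 on GRCm38. The authors deposited raw counts per gene and library. They also deposited FPKM values, which equal the counts divided by gene length and library total (largest relative deviation 2.01e-07). Each count column was tied to a sample through the FPKM file of that sample, and 0 columns of per-sample values were left unused. Columns with the authors' own DESeq2 comparison (mean, fold change and p-values) were not used.

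Counts were tested with edgeR 4.0.16 in R 4.3.3 (filterByExpr, TMM factors of 0.99 to 1.02, glmQLFit and glmQLFTest, two-sided, Benjamini-Hochberg adjustment over 17013 genes, biological coefficient of variation 25.1%). CPM values were counts over the TMM-scaled library size, and were used between libraries. FPKM was used between genes. Alternatives were DESeq2 1.42.0, limma-voom in limma 3.58.1, other normalisations and filters, a replicate block and each library left out. No library pair agreed within sampling noise (chi-square per degree of freedom 17.0 to 82.3). The code was tested on simulated data.

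The members and the gene lists (5 of pathways and 15 of cell types) were chosen with earlier results of these data known. Genes named are all members, the beta common receptor family, and from each other list at most 3 genes with the smallest p. Also named are the markers of a list with the highest and lowest CPM. The 3 genes nearest to Csf1 and to Csf1r in pattern were taken among genes with a mean of at least 1 CPM. Not every gene that this rule admits is printed. S100a8, Retnlg, Adgre1, Camp, Hoxa10, Prg2, Foxa2 and the neutrophil genes listed by their highest library were named after their values were seen.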

Additional observations from a re-analysis of the deposited data

How the results depend on the processing

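With 2 and 3 libraries, single libraries decided most counts. Leaving out each library in turn, edgeR called between 1 (without aged-SP replicate 1) and 578 (without young-SP replicate 1) of all tested genes, against 25 with all 5. It called 49 when aged-SP replicate 4 was dropped, and 3 and 2 when young-SP replicates 2 and 4 were. Between 0 and 1 members were called, the 1 being Csf1 without aged-SP replicate 4. With all 5 libraries, 1 of the 7 members had an unadjusted edgeR p under 0.05, beside 19.0% of all tested genes. Without young-SP replicate 1, 3 members had one, beside 22.7% of the genes tested in that fit. The count also changed without aged-SP replicate 1, but that fit keeps a single aged-SP library and its count of members is not given. Counts of members without overlap are not given for the smaller sets, where the share over all tested genes was not computed. DESeq2 called 632 genes in all and edgeR without a filter on low counts called 203. The log2 fold change of Csf1 ranged from 0.67 to 3.08 over the alternatives (edgeR, DESeq2 or limma adjusted p from 0.0433 to 0.393). Of 99 alternative fold changes of the 7 tested members, 92 kept their direction and their side of the threshold, 1 passed it and 6 turned. Leaving out single libraries gave log2 fold changes from -0.10 to 1.10 for Il34, -0.16 to 0.52 for Csf1r, -0.02 to 0.18 for Csf2ra, -1.41 to 0.13 for Csf3 and -1.31 to 0.63 for Csf3r. Those that turned were Csf1r (-0.16), Csf2ra (-0.02) and Csf3 (0.13) without aged-SP replicate 4, Il34 (-0.10) without aged-SP replicate 1, Csf3r (0.63) without young-SP replicate 1, and Csf1r under the replicate block. The cause was not tested.

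With the replicate number as a block, which leaves out the unpaired young-SP replicate 2 in effect, edgeR called 2 of all tested genes and none of the members. Csf1 had a log2 fold change of 1.77 (edgeR adjusted p = 0.317) and Csf1r one of -0.02 (edgeR adjusted p = 0.977). The deviations of same-numbered libraries from their group means correlated at 0.152 for replicate 1 and 0.136 for replicate 4. With only these pairs, whether same-numbered libraries share more than a number cannot be told. The deviations of the aged-SP libraries mirror each other, so the correlations are not separate checks. Csf2, below the limit that a count of 0 allows, is limited by depth under each alternative.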
